A study of Mus musculus with 30 samples.

Results

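The AP-1 family genes described here are 9 basic leucine zipper transcription factors, chosen by gene name from the 49315 genes of the count table: Fos, Fosb, Fosl1 and Fosl2 of the Fos family, Jun, Junb and Jund of the Jun family, the small Maf gene Maff, and Batf3. All 9 were among the 17774 genes with enough counts to test. They were measured by RNA sequencing in 30 libraries of 4T1-tdTomato, a BALB/c mouse mammary carcinoma line that carries a red fluorescent protein, recovered from female BALB/c or NSG mice. Every sample went through the same warm collagenase IV digestion, with DNase I, and was sorted for live cells (DAPI-) that lacked the leukocyte protein CD45 and carried tdTomato. The NSG host lacks T, B and NK cells.

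The 6 groups held 5 libraries each. Tumours grew from 200000 cells placed in the mammary fat pad and were taken at day 21 (replicates 1 and 2) or day 22 (replicates 3 to 5) from BALB/c hosts and at day 10 from NSG hosts. The lung groups began with 500000 cells given through the tail vein. Groups named DTC, a term that the labels do not expand, were taken at day 7 from either host. Macro-met groups were taken at day 21 (replicates 1 to 4) or day 23 (replicate 5) from BALB/c hosts, and at day 19 (replicates 1 to 4) or day 20 (replicate 5) from NSG hosts. Tumours differed from the lung groups in organ, in route and in the number of cells given. The day changed too, except between BALB/c tumours and BALB/c macro-mets. For tumours and for macro-mets the day also differed between hosts. The parts of these factors in a difference cannot be told apart. Nothing in the labels says whether each library came from its own animal, so the p-values measure only the spread between these libraries.

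AP-1 is a dimer. Fos family proteins bind DNA only after pairing with a Jun protein, whereas Jun proteins can also pair with each other, and the dimers recognise the sequence TGACTCA or the related TGACGTCA. Fos, Fosb, Junb and Jun are immediate early genes, switched on within minutes by growth factors, stress or tissue handling through MAP kinases, the serum response factor SRF and CREB. Fosl1 and Fosl2, which encode Fra-1 and Fra-2, are themselves AP-1 targets in many epithelial cells, and Fra-1 is associated with invasion in breast cancer. Maff encodes a small Maf protein without a transactivation domain, which pairs with Bach and NF-E2 related factors. Batf3 encodes a BATF family protein that pairs with Jun proteins and is best known for its role in cross-presenting dendritic cells.

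The upstream windows of 4 members are shown because these genes were lower in BALB/c than in NSG tumours and their windows held matches to known response elements. Promoters of 8 members, with 10 starts, were found in RefSeq on GRCm38.p6, and the windows of 5 starts held a match. Fosl1 had no promoter there and was not searched. Those of Fosl2 and Junb, which were also lower in BALB/c tumours, and those of Jund, Batf3 and 1 start of Maff held none. For Junb this depended on the window's edges, since TGACG lay just before the window and TATAAA just after the start. The Jund window (chr8:70697639-70697738) ended upstream of the gene position given below, which begins at 70698949. Each window holds the 100 bases before a transcription start, and capitals mark matches to TGACG (the core of a CREB or ATF site), to TGACATCA (an AP-1-like site), to the core promoter element TATAAA, or to the whole of TGACGTCA where it is present.
Fos, chr12:85473790-85473889, plus strand: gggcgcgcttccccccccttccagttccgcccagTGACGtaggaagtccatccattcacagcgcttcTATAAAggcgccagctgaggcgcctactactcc
Fosb, chr7:19310046-19310145, minus strand: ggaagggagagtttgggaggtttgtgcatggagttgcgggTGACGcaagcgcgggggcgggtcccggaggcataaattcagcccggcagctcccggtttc
Jun, chr4:95052223-95052322, minus strand: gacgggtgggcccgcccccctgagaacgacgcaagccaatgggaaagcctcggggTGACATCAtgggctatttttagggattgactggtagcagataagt
Maff, chr15:79347420-79347519, plus strand: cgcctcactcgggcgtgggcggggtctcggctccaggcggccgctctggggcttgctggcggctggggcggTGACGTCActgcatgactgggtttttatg
Positions count back from the start, with -1 as the last base before it. In the Fos window TGACG began at position -66 and TATAAA at position -33. The Fosb window held TGACG from position -60, and the Jun window held TGACATCA from position -45. Maff has 3 starts in the table, and the window of the start shown held TGACGTCA from position -29, while that of another start held TGACATCA from position -45. Both strands were searched. Of 32851 promoter windows of this length, 10.5% held TGACG (which also lies within TGACGTCA), 1.96% held TGACATCA and 5.56% held TATAAA. These 3 patterns were chosen after the promoters had been read. In the longer promoters, from 250 bases before to 50 bases after the start, TGACTCA was present in 5.20%, TGACGTCA in 1.79% and the CArG box that SRF binds in 1.63%. The match in Maff was the only one among the 8 members searched for those motifs. Sites outside this span, such as those farther upstream, were not looked for. A match describes the letters and does not show that a factor was bound.

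Total counts per library ran from 29832098 to 65621525, and a member's level is given as CPM, the count scaled to library size by TMM. The epithelial keratins Krt8 and Krt18 were high in all groups, with mean levels of 2684 to 4073 CPM for Krt8. A pair of BALB/c DTC libraries, replicates 1 and 2, stood apart by lung epithelial transcripts: the mean log2 CPM of 22 lung epithelial and endothelial markers was 6.01 and 4.74 there, against 1.44 to 2.35 in the other 8 DTC libraries. Libraries also differed in a GC trend, the rank correlation between the GC content of a gene and how far that library's level of it lay above the average library. This trend was -0.59 to -0.31 in NSG DTC and -0.09 to 0.44 in BALB/c DTC, and it ran from -0.27 to 0.03 in tumours and from 0.06 to 0.40 in macro-mets. Among the members the exonic GC content ran from 51.9% in Fos to 62.6% in Junb and 67.2% in Jund. The strand setting of the authors' counts is not given in the sources used here, so reads of Fosl1 and Ccdc85b, Junb and Prdx2, Jun and Junos, and Jund and Gm11175, which overlap on opposite strands, cannot be told apart.

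Fos (chromosome 12, 85473890 to 85477273, plus strand, GRCm38), the founding Fos family gene, was highest in NSG tumours. In BALB/c hosts its levels were 712, 656, 1017, 1066 and 1428 CPM in tumours, 834, 928, 869.9, 869.5 and 1299 CPM in DTC and 1192, 1724, 866, 1102 and 839 CPM in macro-mets, in the order of replicates 1 to 5. In NSG hosts they were 2428, 2093, 2163, 2757 and 2825 CPM in tumours, 773, 962, 1055, 879 and 619 CPM in DTC and 1279, 1467, 2097, 1499.9 and 832 CPM in macro-mets. All 5 NSG tumours lay above all 5 BALB/c tumours and all 10 DTC libraries, while 1 NSG macro-met library reached the lowest NSG tumour. The log2 difference between BALB/c and NSG tumours was -1.33 ± 0.22, adjusted p = 5.5e-05. From tumour to DTC, Fos fell by 2.86-fold in NSG hosts (log2 fold change -1.52 ± 0.22, adjusted p = 1.7e-05), and in BALB/c hosts the log2 fold change was -0.02 ± 0.22 with a 95% interval of -0.47 to 0.43. From DTC to macro-met it rose in NSG hosts (log2 fold change 0.74 ± 0.22, adjusted p = 0.00698), and without NSG macro-met replicate 3 that change was 0.54 (adjusted p = 0.0504).

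Fosb (chromosome 7, 19302696 to 19310051, minus strand), the other immediate early Fos gene, had the largest standard errors of the members. BALB/c tumours held 349.7, 257, 794, 875 and 1257 CPM, so both day 21 libraries (replicates 1 and 2) were below the 3 of day 22. NSG tumours held 1969.8, 1703, 1816, 2448 and 2678 CPM, above every other library of the series. The remaining groups held 796, 703, 798, 652 and 1104 CPM in BALB/c DTC, 338, 551, 534, 606 and 357 CPM in NSG DTC, 159.7, 553, 293, 507 and 277 CPM in BALB/c macro-mets and 476, 547, 1018, 593 and 223 CPM in NSG macro-mets. Fosb was 3.00-fold lower in BALB/c than in NSG tumours (log2 difference -1.59 ± 0.37, adjusted p = 0.00231). In NSG hosts it fell by 4.45-fold from tumour to DTC (log2 fold change -2.15 ± 0.38, adjusted p = 0.00014). The fall in BALB/c hosts came between DTC and macro-met, where no libraries overlapped (log2 fold change -1.18 ± 0.37, adjusted p = 0.0151). Leaving out BALB/c DTC replicate 5 or BALB/c macro-met replicate 1 ended that call, with log2 fold changes of -1.01 (adjusted p = 0.0511) and -0.98 (adjusted p = 0.0545).

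Fosl1 (chromosome 19, 5447547 to 5455946, plus strand), which encodes Fra-1, was lowest in BALB/c tumours. Its levels there were 60.2, 13.1, 70.5, 60.8 and 27.9 CPM, against 178, 185, 196, 202 and 266 CPM in NSG tumours. BALB/c DTC held 174, 161, 143, 146 and 225 CPM and NSG DTC 107, 166, 142, 207 and 146 CPM. Macro-mets held 92.7, 99.01, 95.8, 103 and 93.4 CPM in BALB/c and 112, 119, 139.6, 156 and 94.99 CPM in NSG hosts. The highest BALB/c tumour was below the lowest library of any other group. Fosl1 was 4.42-fold lower in BALB/c than in NSG tumours (log2 difference -2.14 ± 0.28, adjusted p = 1.6e-06). From BALB/c tumour to BALB/c DTC it rose by 3.66-fold (log2 fold change 1.87 ± 0.27, adjusted p = 4.5e-06), and from there to BALB/c macro-met the log2 fold change was -0.81 ± 0.27, adjusted p = 0.0207. That fall was not called without the 2 lung-rich BALB/c DTC libraries, at -0.83 (adjusted p = 0.0569), nor without BALB/c DTC replicate 5, at -0.66 (adjusted p = 0.07). In NSG hosts the change from tumour to DTC was -0.42 ± 0.27 with an interval of -0.97 to 0.13, and the libraries overlapped.

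Fosl2 (chromosome 5, 32135801 to 32157842, plus strand), which encodes Fra-2, was also lower in BALB/c than in NSG tumours. BALB/c tumours held 92.6, 68.7, 130.1, 116 and 129.6 CPM and NSG tumours 246, 185, 229, 328 and 363 CPM, without overlap (log2 difference -1.33 ± 0.20, adjusted p = 9e-06). The other groups ranged from 108 to 192 CPM in BALB/c DTC, 145 to 208 CPM in NSG DTC, 86.6 to 153 CPM in BALB/c macro-mets and 125 to 205 CPM in NSG macro-mets, and each overlapped its neighbours. The fall from NSG tumour to NSG DTC (log2 fold change -0.63 ± 0.19, adjusted p = 0.0166) was not called on the authors' TPM values, at -0.38 (adjusted p = 0.15), nor without NSG tumour replicate 4 or 5, at -0.57 (adjusted p = 0.0529) and -0.51 (adjusted p = 0.0686).

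**Figure D1:**
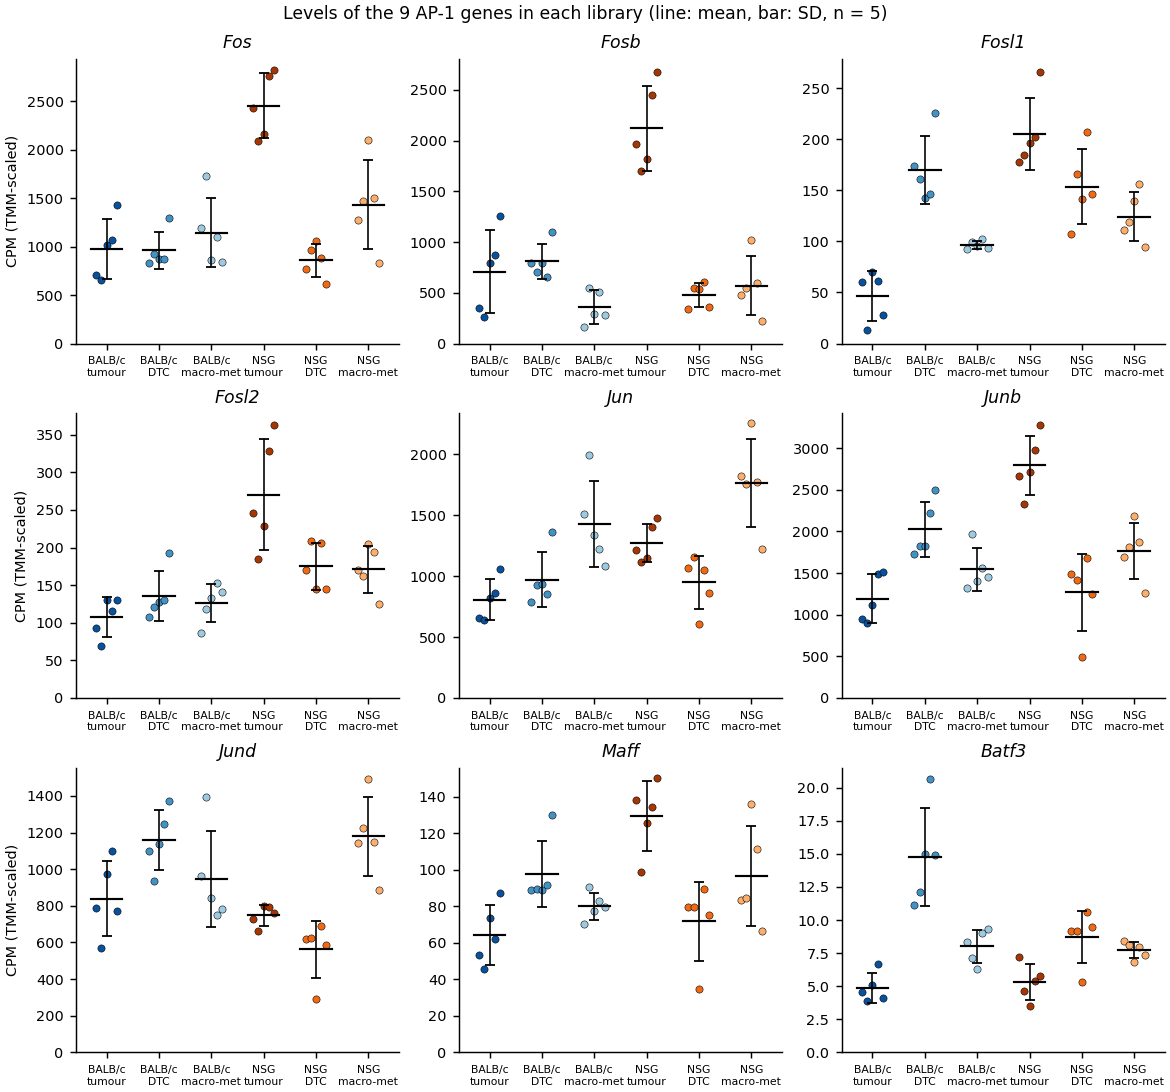
Level of each of the 9 genes (vertical axis, TMM-scaled CPM, own scale per gene) in the 5 libraries of each group; points are libraries, lines are means and bars are SD. NSG tumours (dark orange) are the highest group for Fos, Fosb, Fosl1, Fosl2, Junb and Maff, and BALB/c DTC for Batf3.

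Jun (chromosome 4, 95049034 to 95052222, minus strand, a single exon), whose protein pairs with every Fos protein, was highest in macro-mets. BALB/c tumours held 659, 644, 818, 858 and 1055 CPM, BALB/c DTC 786, 927, 933, 851 and 1363 CPM and BALB/c macro-mets 1509, 1995, 1334, 1225 and 1086 CPM. NSG tumours held 1216, 1118, 1152, 1406 and 1476 CPM, NSG DTC 1069, 1154, 609, 1049 and 859 CPM and NSG macro-mets 1820.00, 1756, 2253, 1770.3 and 1225 CPM. All BALB/c tumours were below all NSG tumours (log2 difference -0.66 ± 0.18, adjusted p = 0.00817) and below all BALB/c macro-mets (log2 fold change from tumour to macro-met 0.83 ± 0.18, adjusted p = 0.00072). From DTC to macro-met Jun rose in both hosts, with log2 fold changes of 0.56 ± 0.18, adjusted p = 0.0188 in BALB/c and 0.90 ± 0.18, adjusted p = 0.00016 in NSG. The BALB/c rise was lost without the 2 lung-rich DTC libraries, at 0.44 (adjusted p = 0.16), and without any 1 of BALB/c DTC replicate 1 or 4 or BALB/c macro-met replicate 2. The NSG rise was lost with offsets for GC content and length, at 0.32 (adjusted p = 0.0778).

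Junb (chromosome 8, 84974484 to 84978718, minus strand), which is induced with Fos and restrains Jun in many settings, had its highest levels in NSG tumours. BALB/c tumours held 949, 894, 1112, 1493 and 1514 CPM and NSG tumours 2665, 2328, 2715, 2979 and 3279 CPM. BALB/c DTC held 1735, 1824, 1831, 2228 and 2502 CPM and NSG DTC 1491, 1412, 497, 1686 and 1249 CPM, where NSG DTC replicate 3 was the lowest library of the series. Macro-mets held 1316, 1974, 1410.4, 1563 and 1454 CPM in BALB/c and 1690.00, 1816, 2182, 1878 and 1265 CPM in NSG hosts. Junb rose in BALB/c hosts from tumour to DTC with no overlap (log2 fold change 0.76 ± 0.21, adjusted p = 0.00469). In NSG hosts it fell with no overlap (-1.14 ± 0.21, adjusted p = 0.00024). BALB/c tumours were 2.34-fold below NSG tumours (log2 difference -1.23 ± 0.21, adjusted p = 8.6e-05), while BALB/c DTC were above NSG DTC (0.68 ± 0.21, adjusted p = 0.0113). The DTC difference had no remaining size with GC and length offsets, at -0.02 (adjusted p = 0.95), and on the authors' TPM it was 0.53 (adjusted p = 0.0565). Without BALB/c DTC replicate 5 it was 0.56 (adjusted p = 0.0502).

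Jund (chromosome 8, 70698949 to 70700616, plus strand, a single exon), the Jun gene that is expressed most steadily in resting cells, did not follow the tumour pattern of the other Jun genes. BALB/c tumours held 786, 568, 976, 1098 and 769.6 CPM and NSG tumours 728, 662, 799.8, 795 and 762 CPM, which overlapped (log2 difference 0.16 ± 0.19, 95% interval -0.22 to 0.55). BALB/c DTC held 1100.2, 936, 1138, 1248 and 1370.3 CPM and NSG DTC 616, 625, 294, 692 and 584 CPM. Macro-mets held 963, 1395, 844, 748 and 784 CPM in BALB/c and 1144, 1225, 1494, 1149 and 889 CPM in NSG hosts. NSG DTC was the lowest group, and even its highest library was below every BALB/c DTC library (log2 difference 1.04 ± 0.19, adjusted p = 5.9e-05) and every NSG macro-met library (log2 fold change from DTC to macro-met 1.07 ± 0.19, adjusted p = 3.1e-05). Jund has the highest GC content of the members, and NSG DTC libraries had the most negative GC trends. With GC and length offsets the difference between DTC groups was 0.37 (adjusted p = 0.019), and the change from NSG DTC to NSG macro-met was 0.26 (adjusted p = 0.0916). The rise from BALB/c tumour to BALB/c DTC (0.46 ± 0.19, adjusted p = 0.0479) was near the threshold, overlapped between libraries and was lost with DESeq2, at 0.44 (adjusted p = 0.053), and without any 1 of 8 of the 10 libraries.

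**Figure D2:**
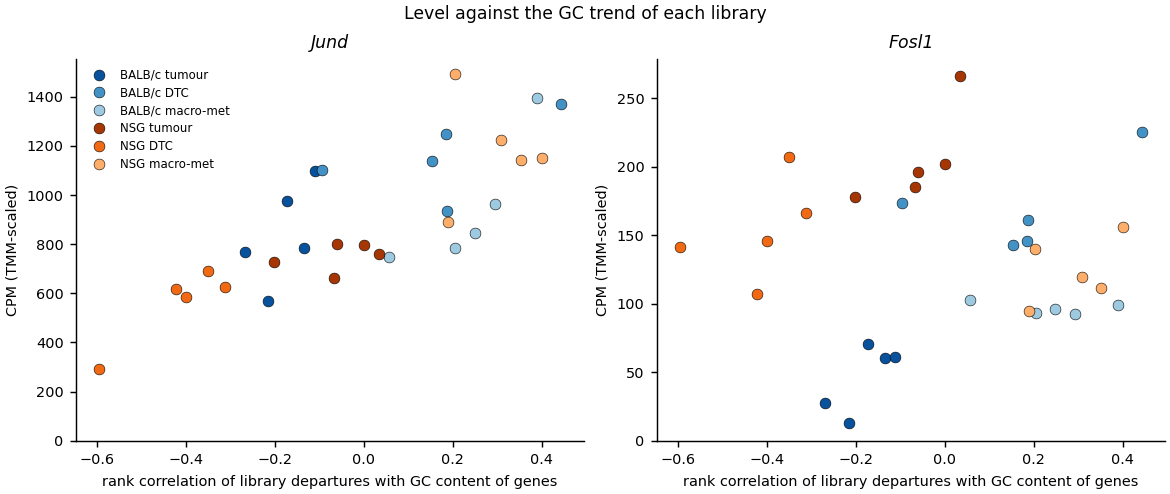
Level of Jund and Fosl1 in each of the 30 libraries (vertical axis, TMM-scaled CPM) against the library's GC trend (horizontal axis, rank correlation over genes). The NSG DTC libraries lie at the left, from -0.59 to -0.31, and include the lowest Jund level of all 30, and the BALB/c tumours with the lowest Fosl1 levels lie between -0.27 and -0.11.

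The make-up of the Fos and Jun families was described on the authors' TPM values, which are per length. The summed Fos family TPM was 4024 ± 704 (SD, n = 5) in NSG tumours and 1478 ± 517 in BALB/c tumours, and the means of the other 4 groups ran from 1678 to 2176. Fos made up most of that sum everywhere, and its mean share was lowest in BALB/c DTC, at 62.7% ± 1.97, and highest in BALB/c macro-mets, at 78.8% ± 4.57. The Fosl1 share was 5.05% ± 2.91 in BALB/c tumours, 7.88% ± 0.829 in NSG tumours, 15.3% ± 1.12 in BALB/c DTC, 16.5% ± 3.37 in NSG DTC, 9.69% ± 2.11 in BALB/c macro-mets and 9.62% ± 1.95 in NSG macro-mets. Both DTC groups thus had higher Fosl1 shares, in every library, than any tumour library. The mean level of Fosl1 itself went from 69.9 to 256 TPM in BALB/c hosts and from 317 to 275 TPM in NSG hosts. In NSG hosts the mean family sum went from 4024 to 1683. In the Jun family Junb held 58.8% ± 1.21 in NSG tumours, above every library of the other 5 groups, whose means ran from 37.8% to 46.8%. The Jund share was 21.9% ± 1.56 in NSG tumours against 39.5% ± 5.20 in BALB/c tumours.

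**Figure D3:**
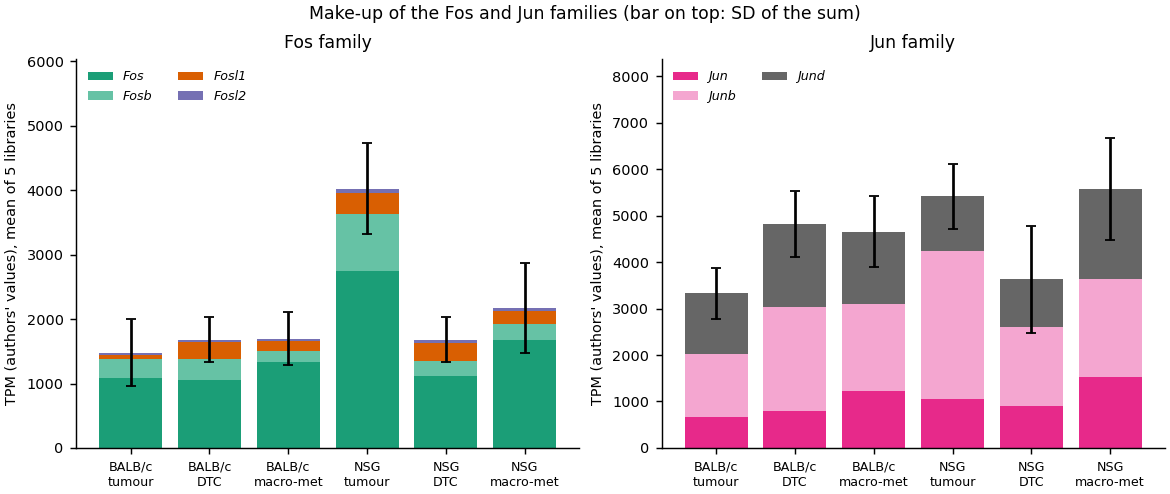
Mean TPM of the Fos family members (left) and the Jun family members (right), stacked, in each group of 5 libraries, with the SD of the sum as a bar. The Fos family sum is largest in NSG tumours, and Junb is the largest segment of the Jun family in every group.

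Maff (chromosome 15, 79346621 to 79359076, plus strand) held 53.1, 45.6, 73.5, 62.1 and 87.1 CPM in BALB/c tumours and 138, 98.8, 126, 134 and 149.98 CPM in NSG tumours, without overlap (log2 difference -1.01 ± 0.20, adjusted p = 0.00045). DTC held 89.1, 89.6, 88.8, 91.8 and 130.01 CPM in BALB/c and 79.8, 79.5, 34.4, 89.6 and 75.1 CPM in NSG hosts. From tumour to DTC Maff rose in BALB/c hosts (0.61 ± 0.20, adjusted p = 0.0166), a call lost with GC and length offsets, at 0.23 (adjusted p = 0.29), and without BALB/c tumour replicate 1 or 2 or BALB/c DTC replicate 5. In NSG hosts it fell (-0.85 ± 0.20, adjusted p = 0.00228). Macro-mets ranged from 70.3 to 90.5 CPM in BALB/c and from 66.4 to 136 CPM in NSG hosts, and neither change from DTC was called.

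Batf3 (chromosome 1, 191097847 to 191108945, plus strand) was the least abundant member on the TPM scale in every group and was highest in BALB/c DTC. Its levels were 4.56, 3.87, 5.08, 6.67 and 4.12 CPM in BALB/c tumours, 11.1, 12.1, 15.03, 20.6 and 14.9 CPM in BALB/c DTC and 8.33, 7.15, 6.32, 8.99 and 9.30 CPM in BALB/c macro-mets. In NSG hosts they were 7.19, 4.62, 3.50, 5.36 and 5.80 CPM in tumours, 9.15, 9.16, 5.34, 10.6 and 9.45 CPM in DTC and 8.41, 8.13, 6.86, 7.97 and 7.34 CPM in macro-mets. The lowest BALB/c DTC library was above every other library of the series. Batf3 rose from tumour to DTC in both hosts, by 3.04-fold in BALB/c (log2 fold change 1.60 ± 0.20, adjusted p = 2.7e-07) and by 1.65-fold in NSG (0.72 ± 0.20, adjusted p = 0.00757). It was higher in BALB/c than in NSG DTC (0.76 ± 0.20, adjusted p = 0.00266), and that difference was 0.08 (adjusted p = 0.78) with GC and length offsets. The summed level of the 5 dendritic cell markers that were tested was 46.6 to 145 CPM in BALB/c DTC and 18.3 to 27.3 CPM in NSG DTC. In BALB/c DTC most of it was Irf8. Of these 5 markers 2 were called higher and 0 lower in BALB/c than in NSG DTC. From tumour to DTC 2 rose in BALB/c and 3 in NSG hosts, and 0 fell. Clec9a, which marks the dendritic cells that need Batf3, was at most 0.612 CPM in any BALB/c DTC library and 0.311 CPM in any NSG DTC library. The part of dendritic cells in the Batf3 levels was not tested. As these are bulk samples, fewer cells that express a gene and less RNA per cell cannot be told apart.

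Tumours of the 2 hosts differed at most of the members. BALB/c tumours had lower levels of 7 of the 9 members than NSG tumours: Fos, Fosb, Fosl1, Fosl2, Jun, Junb and Maff. The differences ran from 1.58-fold for Jun to 4.42-fold for Fosl1. Of all genes tested, 12.6% were called lower and 11.0% higher. No member was called higher by edgeR, DESeq2 or limma voom, and 0 were higher at an unadjusted p under 0.05. The median log2 difference of the members was -1.23, beside 0.08 over all genes. All 7 calls held when any 1 library was left out and under every other setting tried. Of 7 epithelial markers of the tumour line 4 were lower in BALB/c tumours and 0 higher, and of 9 fibroblast markers 1 was higher and 0 lower, and their part was not tested. Tumours of the 2 hosts were taken on different days, and host and day cannot be told apart.

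Many AP-1 targets and feedback genes were lower in BALB/c tumours as well, and the other lists of genes around AP-1 were mixed. Among textbook AP-1 targets, 16 of 25 tested were lower and 2 higher, with a median log2 difference of -0.79. They included Plau, the urokinase protease (-1.98 ± 0.19, adjusted p = 4.7e-09), its receptor Plaur (-1.41 ± 0.16, adjusted p = 6.1e-08) and the EGF receptor ligand Hbegf (-1.39 ± 0.14, adjusted p = 8.6e-09). Of 15 feedback and turnover genes, 9 were lower and 0 higher, led by the ERK phosphatase Dusp5 (-2.21 ± 0.20, adjusted p = 2.8e-09) and the Sprouty inhibitors Spry2 (-1.20 ± 0.12, adjusted p = 7e-09) and Spry4 (-1.48 ± 0.24, adjusted p = 3.1e-05). Of 14 other basic leucine zipper partners, 3 were lower and 1 higher, with a median of 0.04. The lower ones were the stress-induced Atf3 (-2.51 ± 0.38, adjusted p = 1.8e-05), the small Maf gene Mafk (-0.90 ± 0.20, adjusted p = 0.00111) and the Jun-binding repressor gene Jdp2 (-0.55 ± 0.18, adjusted p = 0.0218). The 23 kinases and factors upstream of AP-1 were split, with 3 lower and 3 higher and a median of -0.05.

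A list of 23 genes that warm tissue digestion is known to induce moved with the members. In BALB/c tumours 13 of them were lower and 2 higher than in NSG tumours, including Ier3 (-2.04 ± 0.25, adjusted p = 6e-07), Cyr61 (-1.85 ± 0.23, adjusted p = 8.6e-07) and Nr4a1 (-2.89 ± 0.41, adjusted p = 7.2e-06). Their summed level per library was 5637 to 9266 CPM in BALB/c tumours and 12773 to 15146 CPM in NSG tumours, with no marker at 0. It was 10002 to 12628 CPM in BALB/c DTC, 10075 to 11467 CPM in NSG DTC, 8134 to 11953 CPM in BALB/c macro-mets and 7698 to 14354 CPM in NSG macro-mets. The list shares Atf3, Zfp36 and Dusp1 with the lists above, and all samples were digested in the same way. Its part in the members' differences was not tested.

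From tumour to DTC the members called in BALB/c hosts all rose, and most of those called in NSG hosts fell. In BALB/c hosts 5 of 9 rose, namely Fosl1, Junb, Jund, Maff and Batf3, where 20.4% of all genes rose and 21.0% fell. None fell by edgeR, DESeq2 or limma voom, and 0 did at an unadjusted p under 0.05. The median log2 fold change was 0.46, beside -0.09 over all genes. In NSG hosts 5 of 9 fell, namely Fos, Fosb, Fosl2, Junb and Maff, and Batf3 rose, where 9.55% of all genes fell and 16.0% rose. The members' median there was -0.63, beside 0.06. With GC and length offsets Jund and Maff were no longer called in BALB/c hosts. With the lung marker score as a covariate Fosl2, Junb and Maff were no longer called in NSG hosts, and in BALB/c hosts Jund and Maff lost their call and Jun gained one, at 0.86 (adjusted p = 0.0411).

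Markers of other cells moved at the same step. From BALB/c tumour to DTC 11 of 11 lung epithelial markers rose (median log2 fold change 8.33), 11 of 11 endothelial markers rose (3.81) and 7 of 9 fibroblast markers fell (-1.58). The summed level of the lung epithelial markers was 73.5 to 101 CPM in BALB/c tumours, where 3 of them were at 0 in all libraries, and 202 to 3519 CPM in BALB/c DTC, where none was. From NSG tumour to DTC 8 lung epithelial and 9 endothelial markers rose and 5 fibroblast markers fell, and the lung epithelial sum was 88.1 to 129 CPM in NSG tumours and 116 to 159.6 CPM in NSG DTC. Of the 23 digestion genes 12 rose and 0 fell in BALB/c hosts, and 1 rose and 8 fell in NSG hosts. Beyond the covariate for lung markers, the part of these genes in the members' changes was not tested.

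The difference between hosts in the tumour-to-DTC change was itself called for all 9 members, in the direction of a higher change in BALB/c hosts, where 15.0% of all genes were called in that direction and 18.4% in the other. None was called in the other direction by edgeR, DESeq2 or limma voom, or at an unadjusted p under 0.05. The largest were Fosb (2.35 ± 0.52, adjusted p = 0.00088), Fosl1 (2.29 ± 0.38, adjusted p = 4.2e-05), Junb (1.90 ± 0.30, adjusted p = 2.1e-05), Fos (1.49 ± 0.31, adjusted p = 0.00045) and Maff (1.46 ± 0.29, adjusted p = 0.00022). Fosl2 (0.97 ± 0.27, adjusted p = 0.00688), Batf3 (0.88 ± 0.28, adjusted p = 0.0153), Jund (0.88 ± 0.27, adjusted p = 0.0109) and Jun (0.69 ± 0.26, adjusted p = 0.0351) were smaller. The members' median was 1.46, beside -0.05 over all genes. With GC and length offsets 6 were called, and the values of Jun, Jund and Batf3 were 0.02 (adjusted p = 0.97), 0.18 (adjusted p = 0.47) and 0.16 (adjusted p = 0.70). On the authors' TPM 6 were called too, and the 3 lost were Fosl2 at 0.68 (adjusted p = 0.0631), Jun at 0.47 (adjusted p = 0.17) and Batf3 at 0.59 (adjusted p = 0.0678). Leaving out 1 library at a time, Jun kept its call in 11 of 20 fits and the other 8 members in all 20. These host differences take in the tumour groups, for which host and day cannot be told apart. Between tumours Fos, Fosl1, Jun and Fosl2 differed by -1.33, -2.14, -0.66 and -1.33, and between DTC groups by 0.16, 0.14, 0.04 and -0.37. Fosb, Junb and Maff differed by -1.59, -1.23 and -1.01 between tumours and by 0.76, 0.68 and 0.45 between DTC groups. Jund and Batf3 differed by 0.16 and -0.12 between tumours and by 1.04 and 0.76 between DTC groups. The GC trends of NSG DTC and BALB/c DTC did not overlap, at -0.59 to -0.31 and -0.09 to 0.44, and what they have to do with the part that the offsets did not remove was not tested.

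**Figure D4:**
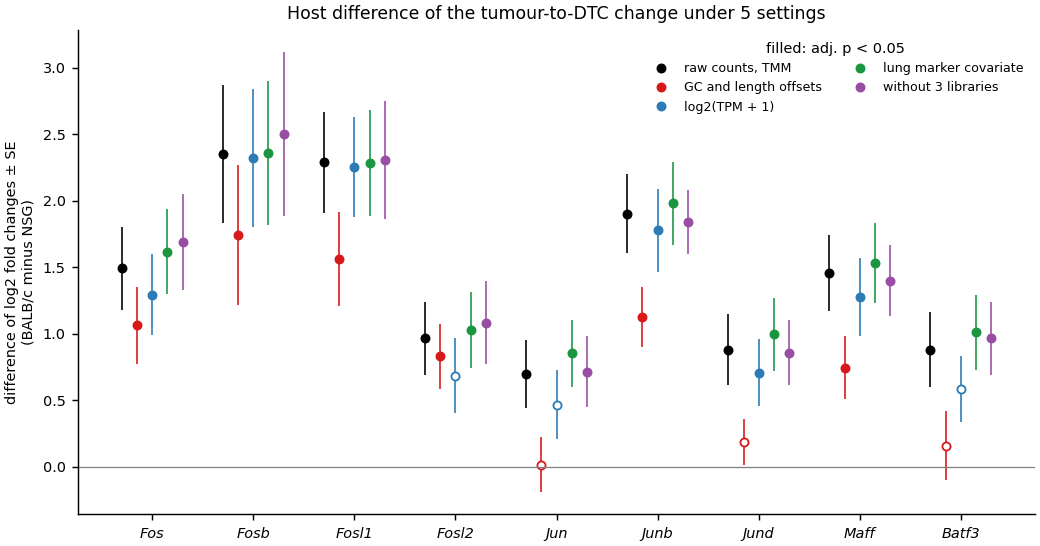
Difference between hosts in the tumour-to-DTC change of each member (vertical axis, log2, BALB/c minus NSG, bars are SE) under 5 settings; filled points have an adjusted p under 0.05. Fos, Fosb, Fosl1, Junb and Maff stay above 0 and filled in all 5, while Jun, Jund and Batf3 are near 0 and open with GC and length offsets (red).

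The surrounding genes were counted in the same comparisons. From BALB/c tumour to DTC, 10 of 25 AP-1 targets rose and 5 fell, among them Plaur (1.25 ± 0.15, adjusted p = 1.8e-07), the cytokine gene Lif (2.34 ± 0.32, adjusted p = 1.4e-06) and the cyclin gene Ccnd1 (0.83 ± 0.14, adjusted p = 1.6e-05). From NSG tumour to DTC 1 rose and 9 fell, and Hbegf (-0.95 ± 0.14, adjusted p = 8.4e-06) was among those that fell. For the host difference 12 targets were called higher and 0 lower, with a median of 0.62. Hbegf (1.71 ± 0.19, adjusted p = 4.4e-07), Plau (1.75 ± 0.26, adjusted p = 8.1e-06) and Lif (2.78 ± 0.43, adjusted p = 2.2e-05) were the clearest. Of the feedback genes 7 were called higher and 5 lower, with Dusp5 (2.41 ± 0.28, adjusted p = 5.3e-07) and the Ras-pathway inhibitor gene Spred1 (-1.55 ± 0.25, adjusted p = 2.2e-05) on opposite sides. Of the upstream kinases and factors 5 were called higher and 10 lower, and Creb1 (-2.50 ± 0.30, adjusted p = 8.7e-07) and the p38 kinase kinase Map2k3 (1.21 ± 0.17, adjusted p = 4.7e-06) were on opposite sides. Of the leucine zipper partners 3 were higher and 4 lower, with Mafk (1.43 ± 0.28, adjusted p = 0.00019) and Atf3 (2.62 ± 0.52, adjusted p = 0.00029) higher and Atf2 (-1.53 ± 0.25, adjusted p = 3e-05) lower. Of the digestion genes 11 were called higher and 1 lower (median 0.75), as were 6 of 7 epithelial markers and 3 of 11 lung epithelial markers. Their part in the members' values was not tested.

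Between the DTC groups, BALB/c DTC had higher Junb, Jund and Batf3 than NSG DTC. These were 3 of 9 members, where 17.1% of all genes were higher and 21.7% lower, and the median was 0.45 beside -0.01. No member was lower by edgeR, DESeq2 or limma voom, and 0 were lower at an unadjusted p under 0.05. Fosb did not overlap between the groups but was not called (0.76 ± 0.36, adjusted p = 0.10), and Fos, Fosl1 and Jun differed by 0.16, 0.14 and 0.04. With GC and length offsets Jund alone was still called higher, and Jun was called lower, at -0.52 (adjusted p = 0.00679). In the same comparison 10 of 11 lung epithelial markers were higher (median 4.51), as were 3 of 3 neutrophil markers and 5 of 7 epithelial markers of the tumour line (0.54). The summed neutrophil level was 8.87 to 49.7 CPM in BALB/c DTC and 0.739 to 2.62 CPM in NSG DTC. Without the 2 lung-rich libraries Junb, Jund and Batf3 were at least as far apart, at 0.80 (adjusted p = 0.0121), 1.16 (adjusted p = 9.5e-05) and 0.96 (adjusted p = 0.00085). The part of the neutrophil and epithelial markers was not tested.

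From DTC to macro-met the members called were not the same in the 2 hosts, apart from Jun, which rose in both. In BALB/c hosts Fosb, Fosl1 and Batf3 fell and Jun rose, which made 3 of 9 lower and 1 higher, where 14.2% of all genes fell and 16.6% rose (members' median -0.29, all genes -0.04). The fall of Batf3 (-0.88 ± 0.20, adjusted p = 0.00103) was the clearest, and with the lung marker score as a covariate it was the only call left of the 4. At this step 9 of 11 lung epithelial markers (median -4.35), 10 of 11 endothelial markers (-2.56) and 5 of 7 epithelial markers of the tumour line (-0.80) fell in BALB/c hosts. In NSG hosts Fos, Jun and Jund rose and none fell, where 21.3% of all genes rose and 22.4% fell (members' median 0.43, all genes 0.02). DESeq2 and limma voom called 0 falls too, and 0 had an unadjusted p under 0.05. In NSG hosts 1 of 11 lung epithelial markers rose and 1 fell (median 0.01). There 5 of 7 epithelial markers of the tumour line (-1.01) and 2 of 11 endothelial markers fell, and 0 of either rose. Risers were 6 of 9 fibroblast (1.73), 3 of 3 neutrophil, 3 of 5 skeletal muscle and 2 of 8 macrophage markers, and 0 of these fell. Beyond the lung marker covariate, the part of these markers was not tested. The rises of Fos, Jun and Jund in NSG hosts were lost with GC and length offsets, where Fos was 0.37 (adjusted p = 0.16). With these offsets Fosl1 and Batf3 were called lower, at -0.97 (adjusted p = 0.00255) and -0.84 (adjusted p = 0.00041). The difference between hosts was called for Fosb (-1.44 ± 0.52, adjusted p = 0.0367), Junb (-0.87 ± 0.30, adjusted p = 0.0284) and Jund (-1.36 ± 0.27, adjusted p = 0.00041), all lower in BALB/c, where 11.6% of all genes were called lower and 16.6% higher. No tool called a member higher there, and 0 were higher at an unadjusted p under 0.05. This difference takes in the macro-met groups, for which host and day cannot be told apart. For this host difference 8 of 11 lung epithelial and 3 of 3 neutrophil markers were called lower too, and without the 2 lung-rich libraries Junb and Jund kept their call. Of the 3, Jund alone kept its call with GC and length offsets, at -0.55 (adjusted p = 0.0246). Leaving out 1 library at a time, Fosb kept its call in 10 of 20 fits, Junb in 13 of 20 and Jund in 20 of 20. BALB/c DTC replicate 5 was among the libraries without which Fosb and Junb lost theirs.

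**Figure D5:**
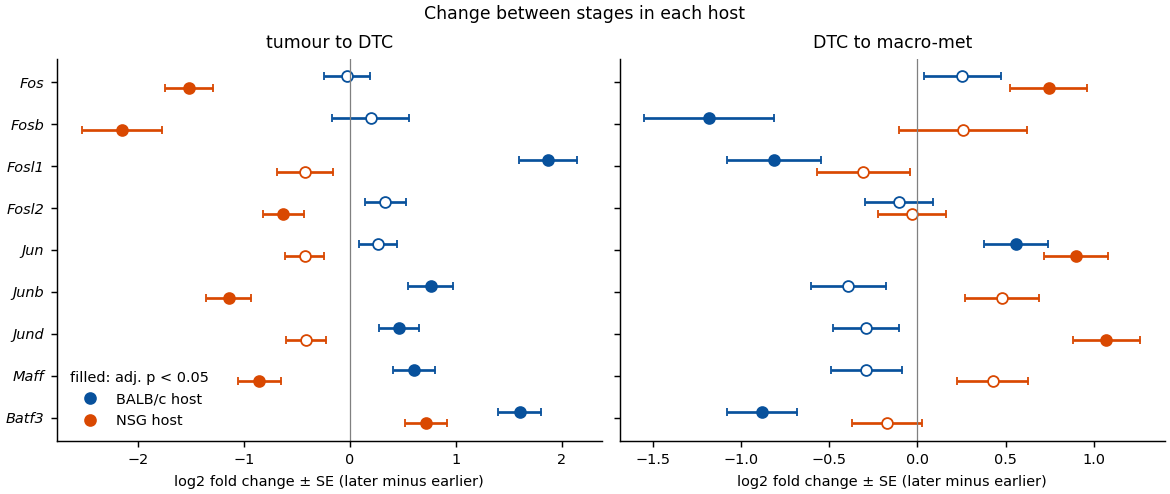
Log2 fold change (horizontal axis, bars are SE) of each member from tumour to DTC (left) and from DTC to macro-met (right) in BALB/c (blue) and NSG (orange) hosts; filled points have an adjusted p under 0.05. On the left the BALB/c points lie to the right of the NSG points for all 9 members.

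The genes around AP-1 were counted for the same step. In BALB/c hosts 2 of 25 targets rose and 7 fell, and in NSG hosts 4 rose and 8 fell. In each host the haem oxygenase gene Hmox1 rose (2.60 ± 0.22, adjusted p = 2.3e-10 in BALB/c and 2.78 ± 0.22, adjusted p = 1.2e-10 in NSG), and the gelatinase gene Mmp9 fell (-2.14 ± 0.25, adjusted p = 1.9e-07 and -2.78 ± 0.26, adjusted p = 2.2e-09). Of the 15 feedback genes 4 rose and 2 fell in BALB/c hosts, and 2 rose and 7 fell in NSG hosts. The Sprouty gene Spry1 rose in both (1.64 ± 0.18, adjusted p = 4.4e-08 and 1.63 ± 0.18, adjusted p = 2.4e-08), and Cop1, whose product marks Jun for degradation, fell in NSG hosts (-0.72 ± 0.09, adjusted p = 8e-08). Of the 14 partners, 4 rose and 3 fell in BALB/c hosts, Atf3 (-1.45 ± 0.37, adjusted p = 0.00348) and Mafk (-0.89 ± 0.20, adjusted p = 0.00079) being among the falls, and 6 rose and 3 fell in NSG hosts. The digestion genes were mixed, with 5 higher and 6 lower in BALB/c and 5 higher and 4 lower in NSG hosts.

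Macro-mets were then set against tumours of the same host. In BALB/c hosts Fosl1 (1.06 ± 0.27, adjusted p = 0.00292), Jun (0.83 ± 0.18, adjusted p = 0.00072) and Batf3 (0.72 ± 0.20, adjusted p = 0.0052) were higher in macro-mets and Fosb (-0.98 ± 0.37, adjusted p = 0.0354) lower, which made 3 and 1 of 9, where 19.6% of all genes were higher and 18.2% lower. In NSG hosts Fos (-0.77 ± 0.22, adjusted p = 0.00842), Fosb (-1.89 ± 0.37, adjusted p = 0.00038), Fosl1 (-0.73 ± 0.27, adjusted p = 0.0391), Fosl2 (-0.66 ± 0.19, adjusted p = 0.0105) and Junb (-0.66 ± 0.21, adjusted p = 0.0177) were lower. Jun (0.47 ± 0.18, adjusted p = 0.0474), Jund (0.66 ± 0.19, adjusted p = 0.00897) and Batf3 (0.55 ± 0.20, adjusted p = 0.0361) were higher, which made 5 and 3 of 9, where 13.6% of all genes were lower and 16.9% higher. The members' medians were 0.32 in BALB/c and -0.66 in NSG hosts, beside -0.03 and 0.02 over all genes. Leaving out 1 library at a time, Fosb in BALB/c hosts kept its call in 4 of 10 fits. In NSG hosts Jun and Batf3 each kept theirs in 1 of 10 fits and Fosl1 in 6 of 10. The call of Jund in NSG hosts was lost without NSG macro-met replicate 3, at 0.51 (adjusted p = 0.0538). With GC and length offsets Jun, Jund and Batf3 were not called in NSG hosts, and Maff was called lower, at -0.70 (adjusted p = 0.00209). With the lung marker covariate those of Fos, Fosl1, Fosl2 and Junb were lost in NSG hosts and that of Fosb in BALB/c hosts. In each host 9 of 11 lung epithelial markers were higher in macro-mets. Of 7 epithelial markers of the tumour line, 4 were lower in BALB/c and 7 in NSG macro-mets, and 0 were higher. Of 9 fibroblast markers 3 were higher and 5 lower in BALB/c hosts, and 4 higher and 0 lower in NSG hosts. Of 8 macrophage markers 1 was higher in BALB/c and 3 in NSG hosts, and 0 were lower. Beyond the lung marker covariate, their part was not tested. Fosl1 (1.78 ± 0.38, adjusted p = 0.00507) and Junb (1.03 ± 0.30, adjusted p = 0.0374) differed between hosts in the change from tumour to macro-met. Leaving out 1 library at a time kept the call in 20 of 20 and 9 of 20 fits, and the lung marker covariate kept that of Fosl1. These were 2 of 9 in the direction of BALB/c, where 3.53% of all genes were called in that direction and 1.70% in the other. No tool called a member in the other direction, and 0 were there at an unadjusted p under 0.05. Both of these host differences take in the tumour groups, whose own difference is given above, and the macro-met groups. For each of these stages host and day cannot be told apart.

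Macro-mets of the 2 hosts did not differ by the test for any member. Their days differed, at 21 or 23 in BALB/c and 19 or 20 in NSG hosts, so host and day cannot be told apart. edgeR, DESeq2 and limma voom each called 0 of 9, where 1.88% of all genes were called higher and 0.760% lower in BALB/c. At an unadjusted p under 0.05 there was 1, Fosl2 (-0.44 ± 0.19, unadjusted p = 0.0306). The log2 differences ran from -0.68 for Fosb to 0.05 for Batf3, and the libraries overlapped for all 9. The 95% intervals still allow differences of some size, from -1.43 to 0.08 for Fosb and from -0.71 to 0.07 for Jund.

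Across the 30 libraries some members tracked each other closely. These correlations of log2 CPM are descriptions, and the libraries share groups, depth and GC trends. Junb and Maff were the closest pair (Pearson r = 0.95 over 30 libraries and 0.90 after group means were removed). Fos and Fosb had r = 0.77 and 0.83. Jun and Jund, at 0.56 and 0.78, were closer within groups than across them. The lowest r was that of Fos with Batf3, at -0.34 and -0.01.

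Among 8930 genes whose mean log2 CPM was 3 or more, the 3 genes most like each member over the 30 libraries were listed by Pearson r. For Fos they included Klf4 (0.86) and Dusp6 (0.84). For Fosb they were Atf3 (0.87), Egr2 (0.83) and Tgif1 (0.83), and for Fosl2 they were Sox9 (0.90), Egr2 (0.90) and Bdkrb2 (0.88). Fosl1 was most like Procr (0.93), Ap2a2 (0.90) and Plaur (0.90). Junb and Maff had each other first, and each was next closest to Bbc3 (0.91 and 0.87) and Erf (0.88 and 0.84). Jun was most like Ier5 (0.88), Nf2 (0.87) and Sulf2 (0.87). Jund was most like Fbxw8 (0.91), Npepl1 (0.89) and Scaf1 (0.88), and Batf3 was most like Pold1 (0.86), Mrm3 (0.85) and Wrap53 (0.85). Egr2 was in the lists of both Fosb and Fosl2.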

How the data were processed

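Messenger RNA of sorted 4T1-tdTomato cells was sequenced in 30 libraries, 5 in each of 6 groups. Per the submitters' processing notes the authors' tools included STAR 2.5.2b and Trimmomatic 0.36, and the build was GRCm38. The counting tool, its strand setting and the annotation release are not given in the sources used here. The authors deposited a table of raw counts per gene, which are whole numbers without normalization, and the TPM of the same genes and libraries, which reach the same total in each library. Of the 49315 genes in the count table, 49056 had an identifier in GENCODE release 21 for mouse, which gave positions, GC content and exonic length. No pair of libraries held identical counts, and libraries of a group correlated at 0.8918 to 0.9867 in log2 CPM.

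After filterByExpr had removed genes of low count, 17774 genes with 99.969% of the counts were tested. Libraries were scaled by TMM and fitted with the robust quasi-likelihood test of edgeR 4.0.16 in R 4.3.3, with 1 mean per group and 24 residual degrees of freedom over all 30 libraries, so the groups share 1 estimate of the spread. Genes with a p-value under 0.05 after Benjamini-Hochberg adjustment across all of them were called higher or lower. All adjusted p-values come from that test unless another setting is named. There were 12 comparisons: 9 between pairs of groups, and 3 interaction terms that test whether a change differs between hosts. The ± after a log2 fold change is the SE of the fit, and after a level or share it is the SD over 5 libraries.

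Other settings were RLE size factors, DESeq2 1.42.0, limma 3.58.1 with voom, no filter on low counts, limma on log2(TPM + 1) and log2(TPM + 0.1), only the groups compared, a covariate of lung marker level, and offsets per library for GC content and length from a spline with 5 degrees of freedom. Each library was also left out in turn. Leaving out the 2 lung-rich BALB/c DTC libraries, or these and NSG DTC replicate 3, was chosen after seeing the data. The fit was tested on simulated counts. The precision of each change is set by the spread between libraries, since reads without molecular identifiers are not independent molecules.

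The 9 genes and the lists of related genes were chosen with earlier results of these data known. From each list up to 3 called genes with the smallest adjusted p and a mean log2 CPM of at least 3 could be named. Promoter sequences are from RefSeq on GRCm38.p6. Some items are not reported here.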

Additional observations from a re-analysis of the deposited data

Results flagged for a closer look

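Some libraries stood apart from the other 4 of their group, in 8 of 54 combinations of gene and group. The cut used gives about 1 in 20 by chance for independent normal values. The members come from the same libraries and correlate, so that rate cannot be set against this count. BALB/c DTC replicate 5 was the highest of its group for Fos (1299 CPM), Fosl2 (192 CPM), Jun (1363 CPM) and Maff (130.01 CPM). NSG DTC replicate 3 was the lowest of its group for Jund (294 CPM), Maff (34.4 CPM) and Batf3 (5.34 CPM). NSG tumour replicate 5 was the highest of its group for Fosl1 (266 CPM). The first of these libraries also had the most positive GC trend of all 30 (0.44) and the second the most negative (-0.59), and the part of that trend in the levels was not tested.

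Changes between stages differed between the hosts, by an interaction term of the fit, for 14 combinations of gene and step. From tumour to DTC the differences (log2, BALB/c minus NSG) were 1.49 for Fos, 2.35 for Fosb, 2.29 for Fosl1, 0.97 for Fosl2, 0.69 for Jun, 1.90 for Junb, 0.88 for Jund, 1.46 for Maff and 0.88 for Batf3. From DTC to macro-met they were -1.44 for Fosb, -0.87 for Junb and -1.36 for Jund. From tumour to macro-met they were 1.78 for Fosl1 and 1.03 for Junb. The 3 steps share groups and are not independent of each other. Those from tumour take in the tumour groups, and those to macro-met take in the macro-met groups. At each of these stages the days differed between the hosts.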

How the results depend on the processing

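The 7 calls between BALB/c and NSG tumours kept their direction and their side of the threshold in every setting run. Counts of members called moved by over 1.5 times elsewhere. With GC and length offsets 3 were called from BALB/c tumour to DTC (5 otherwise), 1 for the host difference of DTC to macro-met (3 otherwise) and 4 for that of tumour to macro-met (2 otherwise). With the lung marker covariate the counts were 1 from BALB/c DTC to macro-met (4 otherwise), 3 from NSG tumour to DTC (6 otherwise), 4 from NSG tumour to macro-met (8 otherwise) and 1 for the host difference of tumour to macro-met. Without the 2 lung-rich libraries, a setting added after seeing the data, 2 were called from BALB/c DTC to macro-met. Without the filter on low counts there were 5 from NSG tumour to macro-met and 1 for the host difference of tumour to macro-met, and RLE size factors also gave 1 for the latter. DESeq2 called 5 for the host difference of DTC to macro-met and 4 for that of tumour to macro-met. For the host difference of DTC to macro-met, log2(TPM + 1) and log2(TPM + 0.1) each gave 1 and fits on only the groups compared gave 5. GC and length offsets turned the sign of 2 values that were called with or without them. Both were between BALB/c and NSG DTC, to -0.52 for Jun (adjusted p = 0.00679) and to -0.018 for Junb (adjusted p = 0.95). The offsets also turned the sign of 14 values of single genes that were called neither with nor without them. The cause was not tested.

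Leaving out 1 library at a time gave 3 to 5 calls from BALB/c tumour to DTC, 2 to 4 from BALB/c DTC to macro-met, 2 to 5 from NSG DTC to macro-met and 5 to 7 from NSG tumour to macro-met. It gave 8 to 9 for the host difference of tumour to DTC, 1 to 5 for that of DTC to macro-met and 1 to 4 for that of tumour to macro-met. Without BALB/c DTC replicate 5 the counts from BALB/c tumour to DTC and from BALB/c DTC to macro-met were 3 and 2. Of 2430 values of single genes under another setting, 2215 kept their side of the threshold, 161 lost their call and 54 gained one. The offsets and the covariate are themselves related to the groups, so a call lost with them may reflect either. No paired analysis was possible because the labels give no pairing of libraries across groups. With 29832098 or more counts per library, every member was detected in every library, and the lowest level was 3.50 CPM, for Batf3.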
